A study of Mus musculus with 39 samples.

Results

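The 31 genes described here are transcripts by which the visceral endoderm is commonly recognised, and they were read in libraries made from mouse epiblasts from which that tissue had been dissected away. Members were the rows of both deposited count matrices, for epiblasts and for epiblast stem cells (EpiSCs), whose symbol was on the list. The rule found 32 rows among 47643 genes, because *Apoc2* was listed under 2 gene identifiers, and it used no measured value. Of the 39 libraries, 35 were single epiblasts. *Stat3* null epiblasts numbered 4, 8 and 3 and wild-type (WT) epiblasts 2, 9 and 9 at embryonic day (E) 5.5, E6.5 and E7.5, respectively. The other 4 were EpiSC lines, cultured stem cells derived from postimplantation epiblasts, namely null lines 2 and 6 and WT lines 8 and 13. All embryos came from intercrosses of *Stat3* heterozygous mice on the CD1 background, and in the null allele a neomycin resistance gene replaces some *Stat3* exons. The lines were derived from E6.5 or E7.5 epiblasts of such intercrosses and were kept in N2B27 medium with FGF2, Activin A and the tankyrase inhibitor XAV-939. In each embryo the visceral endoderm and the extraembryonic ectoderm were removed with a fine pipette, and genotype was read from the extraembryonic tissue. Every epiblast library is therefore a separate embryo and every EpiSC library a separate line.

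The visceral endoderm is the polarised epithelium that wraps the egg cylinder and touches the epiblast directly. It takes up maternal protein through apical endocytic receptors, secretes lipoproteins and plasma proteins much as fetal liver and yolk sac do, and patterns the epiblast through secreted antagonists made at its anterior end. During gastrulation, definitive endoderm formed from the epiblast mixes into the same outer layer, so some regulators, among them GATA6, FOXA1, FOXA2 and SOX17, belong to both tissues, whereas apolipoproteins, AFP, TTR and the cubilin complex are typical of the visceral layer.

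Total counts were 22941210 to 38635127 per library at E5.5, 27913392 to 79013960 at E6.5, 25793920 to 41655234 at E7.5 and 63445877 to 127583699 in EpiSCs. A count of 0 allows up to 3 counts, which was 0.0380 to 0.131 CPM (a gene's counts scaled to the library's total) in an epiblast library, and this covers counting error only, since amplified reads are not independent molecules. *Stat3* itself was at 1.22 to 22.6 CPM in the null and 4.80 to 49.4 CPM in the WT epiblast libraries, with overlap at E6.5, and at 3.17 and 3.52 against 17.8 and 23.0 CPM in the EpiSC lines. Exons outside the replaced part are still counted. *Pou5f1*, the core pluripotency factor that marks the epiblast, was at 101 to 722 CPM in the epiblast libraries other than E5.5 null 1. That library held *Pou5f1* at 0.654 CPM, *Nanog* and *Fgf5* at 0, and a summed level of 2264 CPM over 10 extraembryonic ectoderm genes such as *Elf5* and *Cdx2*, so it went against its epiblast label, and the counts and medians of members in the comparisons that use the E5.5 null group are also given without it.

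Promoter windows of 3 secreted products are shown, namely the members whose window holds the first forkhead motif given below. Of these, only *Afp* was among the genes called in the main tests further on. Each is the 250 bases before the transcription start in RefSeq's mouse annotation (GRCm38.p6), written 5′ to 3′ on the coding strand, and each gene lies on the plus strand. Afp is at chr5:90490464-90490713, Apoa1 at chr9:46228380-46228629 and Apob at chr12:7977427-7977676. Capitals mark matches to 2 of the 5 motifs searched on both strands, as given after the sequences.
Afp: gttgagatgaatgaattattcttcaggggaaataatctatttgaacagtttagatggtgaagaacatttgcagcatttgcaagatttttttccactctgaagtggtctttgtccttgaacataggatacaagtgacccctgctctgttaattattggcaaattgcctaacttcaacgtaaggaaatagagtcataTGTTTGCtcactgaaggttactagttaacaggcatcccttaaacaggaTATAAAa
Apoa1: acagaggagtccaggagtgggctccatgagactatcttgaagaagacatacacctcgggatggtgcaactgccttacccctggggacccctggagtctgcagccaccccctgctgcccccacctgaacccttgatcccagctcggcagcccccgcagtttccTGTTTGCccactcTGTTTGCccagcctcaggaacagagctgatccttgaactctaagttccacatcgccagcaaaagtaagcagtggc
Apob: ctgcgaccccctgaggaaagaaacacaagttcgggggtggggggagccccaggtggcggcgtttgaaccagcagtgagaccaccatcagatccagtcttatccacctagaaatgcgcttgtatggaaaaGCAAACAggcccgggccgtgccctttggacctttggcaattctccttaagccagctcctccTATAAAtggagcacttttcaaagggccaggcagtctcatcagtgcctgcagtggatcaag
The forkhead motif TGTTTGC, of the kind that FOXA proteins bind, was matched once in the *Afp* window, at 2 places in the *Apoa1* window and once on the minus strand of the *Apob* window, where it reads GCAAACA. It was found in 4.30% of all 32851 windows of this length. The TATA motif TATAAA was in the *Afp* and *Apob* windows, and in 12.4% of all windows. Of the 31 symbols, 23 had a window, 32 windows in all. Over these, TGTTTGC was in the windows of the 3 genes shown and of no other member. A second forkhead spelling, TGTTTAC (3.17% of all windows), was in those of *Apoa2*, *Foxa1* and *Rbp4*. The GATA motif AGATAA (9.99%) was in that of *Hnf4a*, TATAAA in those of 6 genes, and the HNF4 motif CAAAGTCCA (0.384%) in none. No motif overlapped another in the 3 windows shown. A match is a description of these letters and says nothing of binding.

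Several members sit side by side in the genome. *Apoe*, *Apoc1* and *Apoc2* lie within chr7:19671579-19699188, *Apoa4* and *Apoa1* within chr9:46228580-46243459, and the fibrinogen genes *Fgg*, *Fga* and *Fgb* within chr3:83007724-83049863 (GRCm38, GENCODE vM21). The 2 *Apoc2* rows overlap, and the second held reads in 3 libraries only, E6.5 null 1 with 254 counts, E6.5 null 2 with 262 and E6.5 WT 6 with 23. In each of those 3 the first row was at 0, so *Apoc2* in these libraries is uncertain by row and levels are the sum of both.

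The summed level of the 31 genes was highest at E5.5 and differed widely between embryos of 1 group. At E5.5 it was 12919 and 14600 CPM in the WT libraries and 636, 20484, 24878 and 15312 CPM in null 1 to 4. The low value belongs to the library without *Pou5f1*, and the other 3 null libraries were above both WT libraries. At E6.5 the lowest, median and highest sums were 467, 634 and 8726 CPM in WT and 695, 1864 and 9790 CPM in null epiblasts, so the ranges overlapped and spanned 18.7-fold in WT and 14.1-fold in null. At E7.5 they were 1108, 3176 and 6844 CPM in WT, while the 3 null libraries had 629, 432 and 821 CPM, all below the lowest WT library. In the EpiSC lines the sum was 351 and 373 CPM in null and 468 and 638 CPM in WT. As a share of all counts, the 31 genes made up 1.29% and 1.46% of the E5.5 WT libraries and 0.0432% to 0.0821% of the E7.5 null libraries. In such bulk libraries, fewer cells of a type and less RNA per cell cannot be told apart.

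**Figure D1:**
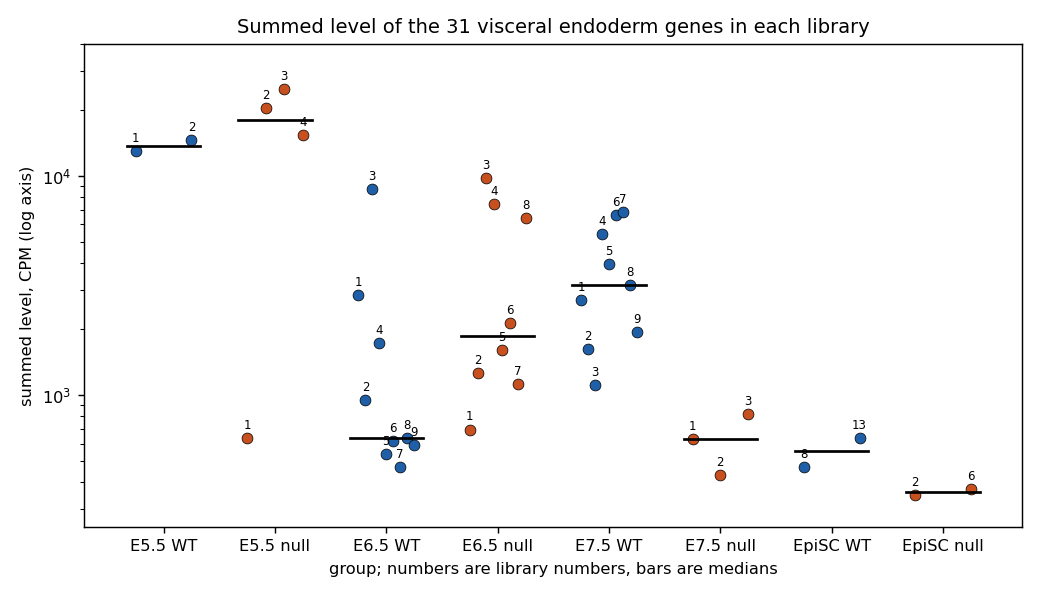
Summed level of the 31 visceral endoderm genes (CPM, log axis) in each library, by group, with WT in blue, null in orange, the library's number above its point and the group median as a bar. E5.5 libraries other than null 1 lie between 12919 and 24878 CPM, E6.5 libraries of both genotypes spread from 467 to 9790 CPM, and the 3 E7.5 null libraries (432 to 821 CPM) lie below all 9 E7.5 WT libraries.

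The genes were high or low together from embryo to embryo. Among the 9 E6.5 WT libraries, WT 3 was highest for 29 of the 31 genes. Among the 8 E6.5 null libraries, null 3 was highest for 17 and null 4 for 13, and null 4 was among the top 3 for all 31. In the E7.5 WT group, WT 7 was highest for 17 genes and WT 6 for 10, and WT 3 was lowest for 25. At E7.5 the ratio of the highest to the lowest WT library was 24.7 for *Cubn*, 17.2 for *Ttr* and 8.86 for *Apob*, but 2.50 for *Foxa1*, 2.29 for *Slc40a1* and 1.46 for *Sparc*. At E6.5 the WT ratios were wider, at 130 for *Cubn*, 57.1 for *Foxa1*, 12.9 for *Slc40a1* and 4.03 for *Sparc*. The map of all genes by library shows the same columns standing out across functional groups.

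**Figure D2:**
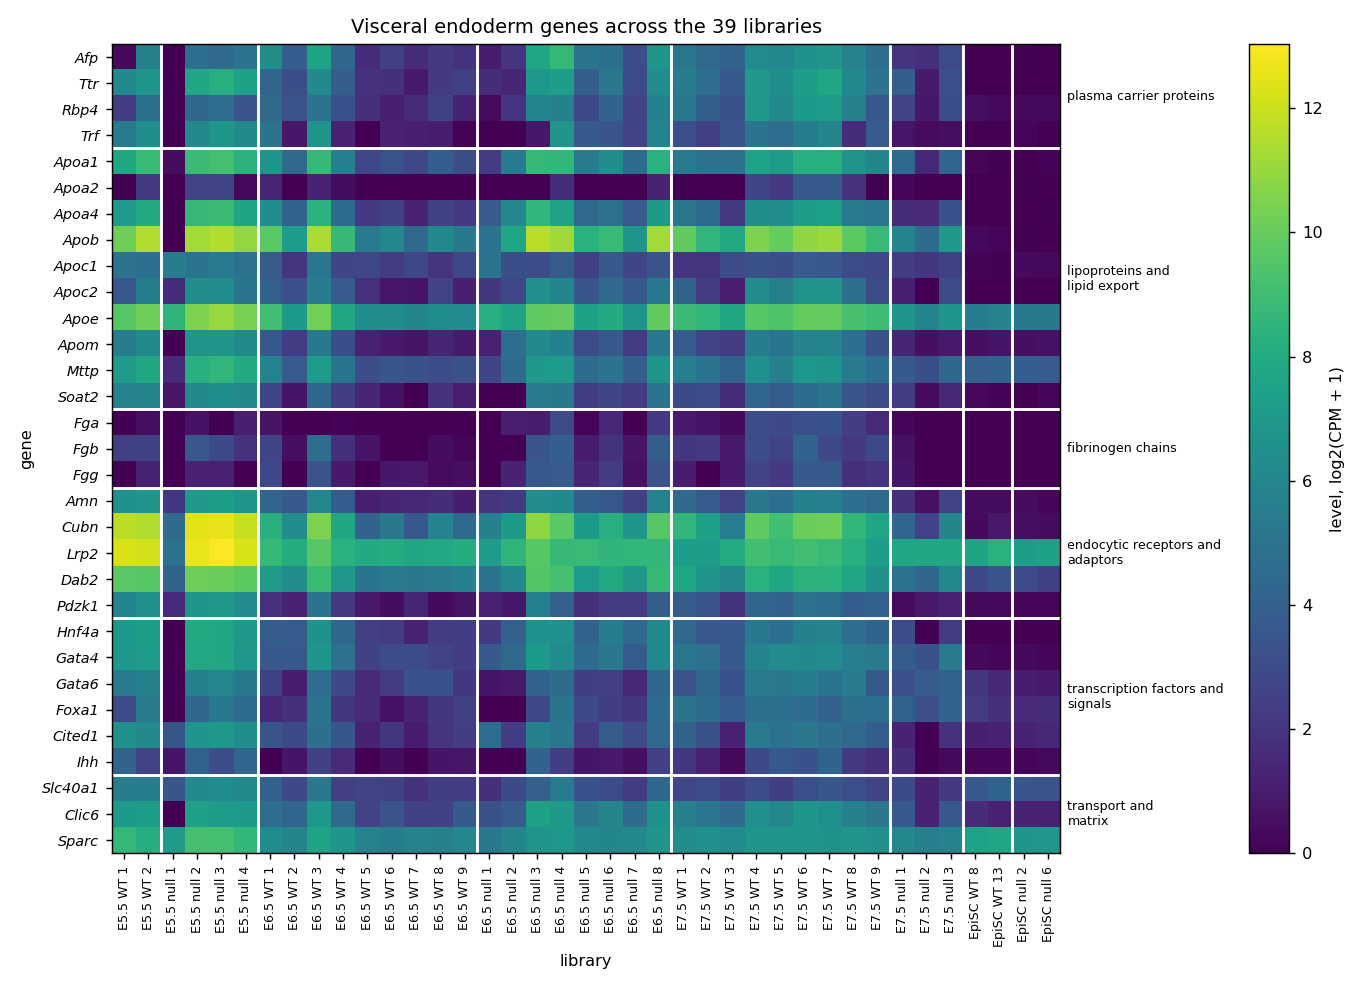
Level of each gene (rows, grouped by function) in each of the 39 libraries (columns, grouped by stage and genotype) as log2(CPM + 1), with both Apoc2 rows summed. E6.5 WT 3 and E6.5 null 3, 4 and 8 stand out as bright columns, E5.5 null 1 and the EpiSC lines as dark ones, and the rows of Lrp2, Apoe and Sparc remain bright in nearly every library.

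By counts not adjusted for length, endocytic receptors dominated the set in the E5.5 libraries other than null 1. As TPM (levels adjusted for transcript length), *Apoe* had a higher median than *Lrp2*. These were 1260 and 779 in E5.5 WT and 1833 and 963 in E5.5 null. *Lrp2* (megalin) and *Cubn* (cubilin) encode the scavenger receptors of the apical surface, *Amn* (amnionless) brings cubilin to it, *Dab2* is the clathrin adaptor of these receptors and *Pdzk1* a scaffold of apical membrane proteins. *Lrp2* was at 4853 and 4482 CPM in the E5.5 WT libraries and at 28.3, 6405, 8386 and 4935 CPM in null 1 to 4. *Cubn* was at 3347 and 2813 CPM in WT and at 22.7, 5515, 6321 and 3801 CPM in null 1 to 4. Except in null 1, both genes were thus abundant in every E5.5 library. By E6.5 *Lrp2* had lowest, median and highest levels of 226, 268 and 809 CPM in WT and 143, 399 and 797 CPM in null epiblasts, and *Cubn* 10.7, 54.7 and 1393 CPM in WT and 50.7, 211 and 1883 CPM in null epiblasts. Where *Cubn* was lowest, *Lrp2* was still read at a high level. The same held at E7.5, where *Lrp2* was at 207, 224 and 215 CPM in the null libraries and at 145 to 553 CPM in WT, while *Cubn* was at 18.3, 5.22 and 60.5 CPM in null and 46.8 to 1156 CPM in WT. In EpiSCs *Lrp2* was at 156 and 178 CPM in null and 196 and 325 CPM in WT lines, and *Cubn* was under 1 CPM in all 4.

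In WT epiblasts at E7.5, lipoprotein genes took a larger share of the sum than endocytic genes did. *Apob* encodes the structural protein of secreted lipoproteins, *Mttp* the transfer protein that loads it with lipid, *Soat2* a cholesterol-esterifying enzyme, and the *Apoa*, *Apoc*, *Apoe* and *Apom* genes exchangeable apolipoproteins. The 10 genes made up 20.4% and 34.6% of the sum in E5.5 WT libraries and 47.5% to 57.3% in E7.5 WT libraries, whereas the 5 endocytic genes went from 71.0% and 56.9% to between 25.8% and 34.5%. The ranges of these 2 stages do not overlap for either group of genes. In the E7.5 null libraries the order was the other one, with lipoprotein shares of 22.7% to 37.0% and endocytic shares of 41.1% to 58.2%, as it was by median in E6.5 WT (31.9% and 52.4%). Shares of counts weigh long genes more. As TPM, *Apoe* was at 146, 74.6 and 150 and *Lrp2* at 33.5, 36.6 and 35.9 in E7.5 null 1 to 3. *Cubn* was at 3.32, 0.952 and 11.3 and *Dab2* at 11.3, 7.48 and 24.1. *Apoe* alone thus exceeded the 5 endocytic genes together in each, as it did in every E6.5 WT library. At E5.5 the 10 lipoprotein genes together exceeded the endocytic genes as TPM in every library. The order of the count shares in E5.5 WT, E6.5 WT and E7.5 null therefore did not hold for length-adjusted levels. *Apob* was at 1163 and 2814 CPM in E5.5 WT and at 0, 2430, 3001 and 1908 CPM in E5.5 null 1 to 4. At E6.5 it was at 21.1, 74.1 and 2637 CPM (lowest, median, highest) in WT and at 31.9, 387 and 3125 CPM in null. *Apob* was thus as abundant in the richest E6.5 epiblasts as at E5.5. At E7.5 it was at 240, 927 and 2129 CPM in WT and at 55.3, 23.8 and 128 CPM in the 3 null libraries, and the groups did not overlap.

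*Apoe*, a lipoprotein ligand made by many cell types, was less tied to the rest. It was at 811 and 1127 CPM in E5.5 WT and at 350, 1433, 2074 and 1330 CPM in E5.5 null 1 to 4, so that it was the most abundant member in the library where 16 of the 31 genes had no count. At E6.5 it ranged from 60.2 to 1215 CPM in WT and from 111 to 964 CPM in null epiblasts, and at E7.5 from 223 to 1008 CPM in WT, with 115, 58.6 and 115 CPM in null. EpiSCs held 37.1 to 53.5 CPM. *Apoc1*, its neighbour, was highest in E5.5 null 1 (45.6 CPM) and lay between 2.87 and 39.2 CPM in the other epiblast libraries. Adjusted for transcript length, as TPM, *Apoe* had the highest median of the set in each of the 6 epiblast groups, from 119 TPM in E6.5 WT to 1833 TPM in E5.5 null (1898 without null 1). The gene next in order was *Lrp2* in both E5.5 groups and in E6.5 WT, and *Apoa1* in the others, while in E7.5 WT *Lrp2* held rank 12. With spreads as wide as these between embryos, the order below *Apoe* is not a firm one.

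**Figure D3:**
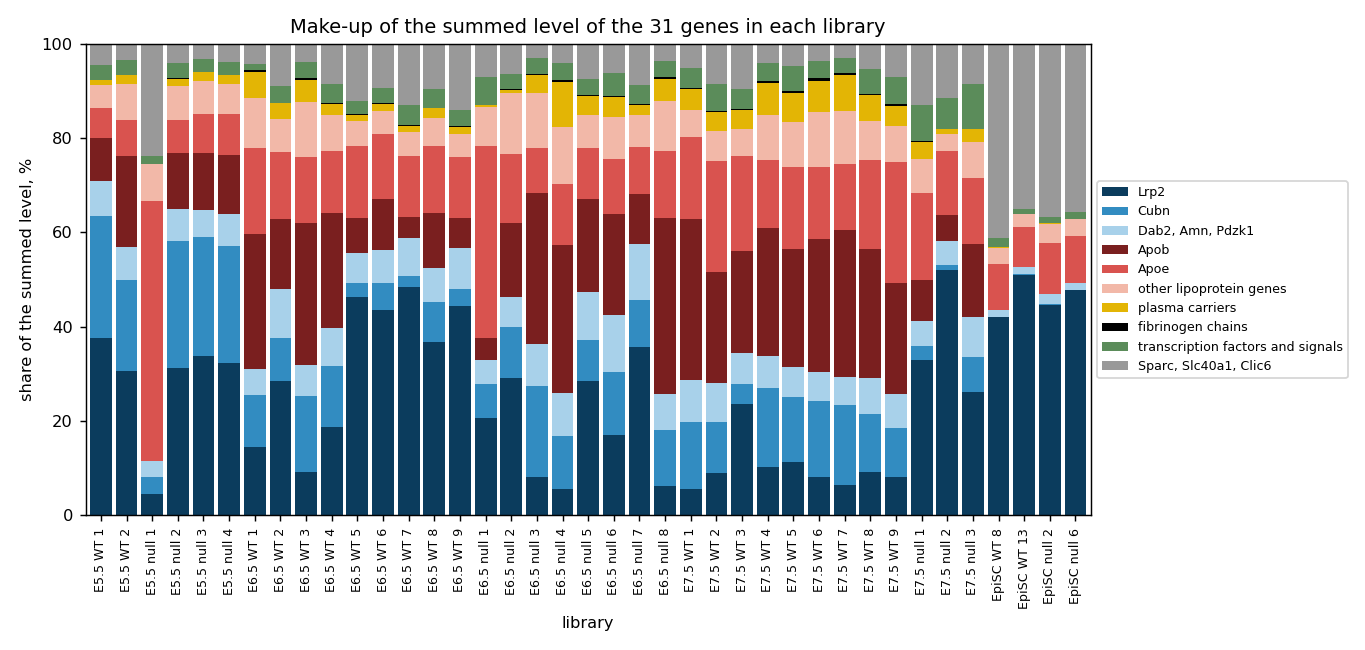
Share (%) of the summed level of the 31 genes taken by single genes or functional groups in each library, as stacked bars that add up to 100%. Lrp2 (dark blue) takes 30.7% to 37.6% and Cubn (mid blue) 19.3% to 26.9% of the E5.5 bars except null 1, Apob and Apoe (reds) widen in E7.5 WT, and Lrp2 with Sparc, Slc40a1 and Clic6 (grey) fill most of the EpiSC bars.

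By counts not adjusted for length, plasma carriers were scarce at E5.5 next to the receptors. As TPM, the medians of *Ttr* and *Dab2* were 475 and 436 in E5.5 null without null 1, and 219 and 310 in E5.5 WT. *Afp* encodes alpha-fetoprotein, *Ttr* transthyretin, *Rbp4* the retinol carrier and *Trf* transferrin. *Afp* was at 0.263 and 50.5 CPM in E5.5 WT and at 0, 25.9, 22.0 and 30.6 CPM in null 1 to 4. It was at 2.08, 4.46 and 186 CPM (lowest, median, highest) in E6.5 WT and at 0.975, 29.5 and 408 CPM in E6.5 null epiblasts. *Afp* therefore reached higher levels at E6.5 than in any E5.5 library, although the sum of the set was higher at E5.5. Its share of the sum was at most 0.346% at E5.5, up to 5.48% in E6.5 null 4, and steady at 1.24% to 1.72% over the 9 E7.5 WT libraries. At E7.5 *Afp* was at 16.7, 54.7 and 110 CPM in WT and at 2.91, 2.56 and 7.13 CPM in null 1 to 3, with no overlap.

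*Ttr* was at a higher level than *Afp* in every E5.5 library other than null 1. It was at 72.6 and 114 CPM in E5.5 WT and at 0, 199, 283 and 174 CPM in null 1 to 4, at 0.904, 4.64 and 71.3 CPM (lowest, median, highest) in E6.5 WT, and at 12.0, 66.9 and 205 CPM in E7.5 WT. The E7.5 null libraries held 14.4, 0.888 and 7.95 CPM, the first of which overlaps the lowest WT library. *Rbp4* was at 4.21 and 26.7 CPM in E5.5 WT, at 1.18, 4.96 and 30.1 CPM in E6.5 WT and at 8.33, 49.5 and 141 CPM in E7.5 WT, against 5.36, 0.781 and 7.90 CPM in E7.5 null. *Trf* was at 2.15, 12.3 and 58.0 CPM in E7.5 WT and at 0.716, 0.296 and 0.384 CPM in E7.5 null. It was out of step with *Apob* in several libraries. In E6.5 null 3 it was at 0.781 CPM beside *Apob* at 3125 CPM, in E7.5 WT 8 at 2.15 beside 869 CPM and in E6.5 WT 4 at 1.42 beside 422 CPM, whereas in E6.5 null 4 it was at 111 CPM.

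Fibrinogen transcripts, which encode the 3 chains of the clotting protein, were the rarest. *Fga* was at 0 and 0.422 CPM in E5.5 WT, was at 0 in 7 of 9 E6.5 WT libraries, and was found in all 9 E7.5 WT libraries at 0.279, 4.13 and 8.60 CPM (lowest, median, highest). Of the E7.5 null libraries, null 1 held 0.123 CPM (5 counts) and the other 2 none. *Fgb* was at 0.937, 5.46 and 16.6 CPM and *Fgg* at 0, 2.91 and 12.1 CPM in E7.5 WT, and in E7.5 null both were found in null 1 alone, at 0.519 and 0.642 CPM. In E6.5 null libraries the chains reached up to 13.8 CPM, but *Fga* was at 0 in 2 of the 8, *Fgb* in 2 and *Fgg* in 1. EpiSCs held no count of any.

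Of 4 endoderm transcription factors, *Hnf4a* alone had E7.5 null levels wholly below the WT range, and among the E6.5 WT libraries all 4 were highest in WT 3. *Hnf4a* drives the secretory programme of this epithelium, *Gata4* and *Gata6* specify primitive endoderm and its derivatives, and *Foxa1* is a forkhead factor of endoderm. *Hnf4a* was at 121 and 153 CPM in E5.5 WT and at 0, 239, 222 and 126 CPM in null 1 to 4. It was at 1.48, 4.58 and 98.0 CPM in E6.5 WT, at 3.67, 32.2 and 103 CPM in E6.5 null and at 10.8, 24.2 and 56.5 CPM in E7.5 WT, and at 7.16, 0 and 4.01 CPM in E7.5 null. It thus lay below every E7.5 WT library in each E7.5 null library. *Gata4* was at 122 and 146 CPM in E5.5 WT, had a median of 7.23 CPM in E6.5 WT, was at 11.4 to 76.4 CPM in E7.5 WT and overlapped that range in E7.5 null (13.5, 8.75 and 40.3 CPM).

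*Foxa1* and *Gata6* were read in every E7.5 library. *Foxa1* was at 12.7, 24.8 and 31.7 CPM in E7.5 WT and at 15.5, 8.08 and 16.1 CPM in E7.5 null, although it was at 0.557, 2.39 and 31.8 CPM in E6.5 WT. Its highest E7.5 library was WT 1, which was the sixth of 9 by the sum. *Gata6* was at 8.76, 31.3 and 45.2 CPM in E7.5 WT and at 8.20, 12.3 and 15.7 CPM in E7.5 null, against 1.01, 4.70 and 24.2 CPM in E6.5 WT. Of 2 further members with signalling roles, *Cited1*, a transcriptional coactivator, was at 1.34 to 39.3 CPM in E7.5 WT and at 1.48, 0 and 2.64 CPM in null, and *Ihh*, a hedgehog ligand of visceral endoderm, was at 17.6 and 5.31 CPM in E5.5 WT and at 0 to 4.95 CPM in E6.5 WT.

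Regulators of endoderm that are not members of the set were read beside them. At E7.5, *Foxa2* was at 37.6 to 65.1 CPM in null and 24.4 to 45.5 CPM in WT libraries, and *Cer1*, a secreted antagonist of the anterior visceral endoderm and of definitive endoderm, at 29.6 to 75.2 CPM in null and 32.7 to 100 CPM in WT. In E6.5 WT their medians were 15.2 and 2.44 CPM. *Sox17*, by contrast, was at 5.01 to 8.84 CPM in null and 7.19 to 38.7 CPM in WT at E7.5. E7.5 null epiblasts thus held *Foxa2* and *Cer1* at levels that overlapped those of WT, while the 31 genes summed to less than in any WT library. Whether the transcripts came from visceral endoderm left on the epiblast or from endoderm forming in it was not tested, and in bulk libraries of single epiblasts the 2 sources cannot be told apart for genes that both tissues express.

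**Figure D4:**
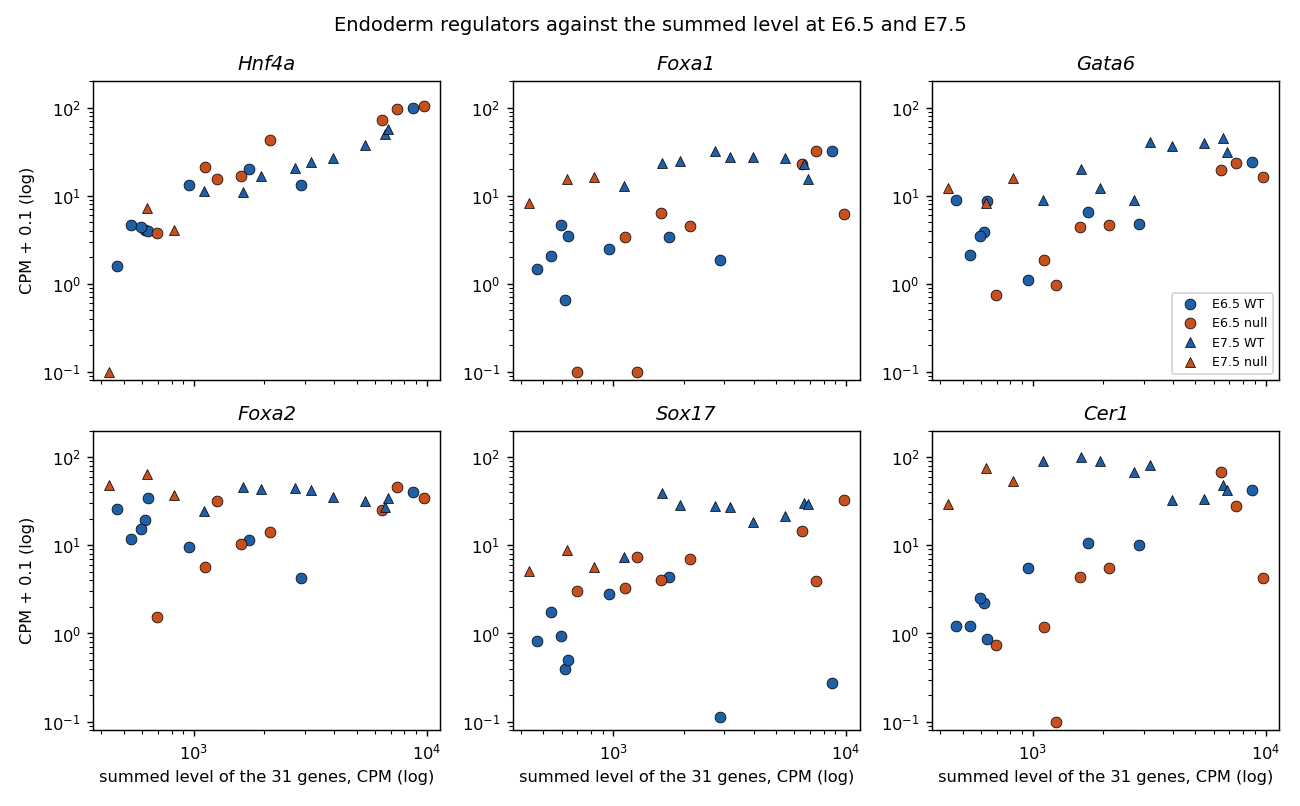
Level of 6 endoderm regulators (CPM + 0.1, log axis) against the summed level of the 31 genes (CPM, log axis) in E6.5 (circles) and E7.5 (triangles) libraries, WT in blue and null in orange. Hnf4a is higher where the sum is higher, from 0 to 103 CPM, whereas the E7.5 null triangles at 432 to 821 CPM hold Foxa1 at 8.08 to 16.1, Foxa2 at 37.6 to 65.1 and Cer1 at 29.6 to 75.2 CPM; the axes share library depth.

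Of the 3 genes with roles in transport and matrix, *Sparc*, a matrix glycoprotein also made by parietal endoderm and mesoderm, was at 410 and 282 CPM in E5.5 WT and at 141, 579, 571 and 402 CPM in null 1 to 4. It was at 44.3 to 179 CPM in E6.5 WT, at 37.4 to 124 CPM in E6.5 null, at 81.0, 98.7 and 118 CPM (lowest, median, highest) in E7.5 WT and at 63.4, 46.3 and 53.6 CPM in E7.5 null, and EpiSCs held 117 to 205 CPM. *Clic6*, a chloride channel family member, was at 130 and 155 CPM in E5.5 WT, 4.69 to 123 CPM in E6.5 WT, 21.1 to 118 CPM in E7.5 WT and 11.2, 1.40 and 12.1 CPM in E7.5 null. *Slc40a1*, the iron exporter ferroportin, was at 44.5 and 44.4 CPM in E5.5 WT, had a median of 6.90 CPM in E7.5 WT and was at 6.49, 1.40 and 3.48 CPM in E7.5 null.

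EpiSC lines, which have been grown away from any extraembryonic tissue, gave the level of these genes in cultured epiblast-derived cells. In all 4 lines 21 of the 31 genes were under 1 CPM, 6 were at 3 counts or fewer and 5 of these (*Ttr*, *Apoc2* and the 3 fibrinogen genes) had no count. *Lrp2*, *Sparc*, *Apoe*, *Mttp* and *Slc40a1* made up 95.6% to 96.9% of the sum. *Lrp2*, *Apoe*, *Mttp* and *Sparc* were over 10 CPM in every line. Reads of these 4 genes were thus found in lines grown apart from the embryo as well as in dissected epiblasts. EpiSC and epiblast libraries were made with different kits and were not tested against each other.

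Null and WT were compared with edgeR's quasi-likelihood test, and a gene was called when its log2 fold change exceeded 1 in either direction and its p, adjusted over all genes tested (Benjamini-Hochberg), was under 0.05. At E5.5 none of the 31 rows tested was called and none had an unadjusted p under 0.05. The same test called none of all 18690 genes (0%), of which 467 had an unadjusted p under 0.05 and DESeq2 called 31 of 20514 (0.151%), no member among them. The median log2 fold change of the rows was 0.09. Without null 1 it was 0.48 and all 31 were positive, 8 rows had an unadjusted p under 0.05, edgeR again called none of 18217 genes (0%), of which 813 had an unadjusted p under 0.05, and DESeq2, run in this way after seeing the data, called *Ttr* higher, where it called 0.65% of 18459 genes. With 2 WT embryos, the absence of a call does not show that the levels were alike. At E6.5 none of 29 rows was called, nor any of 17095 genes (0%), and DESeq2 called 30 of 13943 genes (0.215%), again without a member. Here 28 of the 29 rows were higher in null, with a median log2 fold change of 1.17 against -0.01 over all genes tested, and 1 row (*Cited1*, 1.39 ± 0.63 SE) had an unadjusted p under 0.05. No member separated the genotypes, where 0.0234% of all genes did with null higher and 0.0351% with null lower.

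The E6.5 libraries fall into 2 depth classes, since null 1 to 3 and WT 1 to 3 had over 40000000 counts, and the direction was not shared by both. In the shallower class the sum had a median of 2130 CPM in 5 null and 605 CPM in 6 WT libraries, all 29 rows were positive and their median log2 fold change was 2.83. In the deeper class the medians were 1259 CPM in 3 null and 2870 CPM in 3 WT libraries, 17 of 30 rows were negative and the median was -0.08. No member was called in either class, where edgeR called 0.0899% of 17795 genes in the shallower class and none of 16492 (0%) in the deeper one, of which 681 had an unadjusted p under 0.05. Extraembryonic ectoderm genes were also unequal at E6.5: the summed level of 10 of them was 55.8, 123 and 1497 CPM (lowest, median, highest) in null and 37.8, 45.9 and 133 CPM in WT, with 9 of 9 tested higher in null and none called. The highest of these, null 1, was the lowest null library for the 31 genes, with 695 CPM. The part of incomplete dissection or of staging in these values was not tested.

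At E7.5, 5 of the 31 genes were called lower in null epiblasts, and these were secreted products and an apical scaffold. The study's authors report that E7.5 null epiblasts grouped nearer to E6.5 than to E7.5 WT epiblasts. Genotype and developmental stage therefore cannot be told apart in this comparison. The sum of the 31 genes had a median of 629 CPM in E7.5 null, 634 CPM in E6.5 WT and 1864 CPM in E6.5 null. E6.5 WT libraries spanned 467 to 8726 CPM, so the nearness of the first 2 medians carries little weight. All 31 rows tested had negative log2 fold changes, with a median of -3.20 against -0.02 over all genes, and 24 had an unadjusted p under 0.05. The 5 calls by edgeR stand beside a background in which 1.09% of the 19680 genes tested were called lower and 1.17% in either direction. *Pdzk1* fell by 4.16 on the log2 scale (SE 0.67, adjusted p = 0.0183), *Apoe* by 2.61 (SE 0.48, adjusted p = 0.0330) and *Afp* by 3.67 (SE 0.75, adjusted p = 0.0398). *Trf* fell by 5.44 (SE 1.22, adjusted p = 0.0479), and *Fga* by 6.47 (SE 1.45, adjusted p = 0.0405), a fitted value that depends on the prior count because 2 of 3 null libraries had no count. Each of the 5 was lower in 3 of 3 null libraries than in any of 9 WT libraries. In all, 14 rows had null levels wholly below the WT range, where 2.45% of all genes did, and 13 rows that were not called, among them *Cubn*, *Apoa1*, *Ttr* and *Rbp4*, had log2 fold changes from -3.16 down to -5.90.

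Members closest to the thresholds were *Fgb* (adjusted p = 0.0510), *Apom* (0.0518) and *Apob* (0.0524) in the same edgeR fit. *Sparc* had an adjusted p of 0.0172 in edgeR but a log2 fold change of -0.83 ± 0.13, under the fold threshold. The smallest differences were those of *Lrp2* (-0.54 ± 0.46), *Slc40a1* (-0.74 ± 0.39), *Apoc1* (-0.75 ± 0.41) and *Foxa1* (-0.75 ± 0.26), none of which was called. By group, 2 of 4 plasma carriers, 1 of 10 lipoprotein genes, 1 of 3 fibrinogen chains, 1 of 5 endocytic genes and none of 6 transcription factors and signals or of 3 transport and matrix genes were called. The calls rest on few null embryos: without E7.5 null 1 the call was *Fgb* alone, and without null 2 or without null 3 there was none. Without WT 3, the WT library with the lowest sum, 17 rows were called. WT 3 was also apart outside the set, with nascent mesoderm genes summing to 25.2 CPM against a WT median of 483 CPM. Shares of all genes called are not given for fits with a library left out, so their counts are not results about the set. Without any 1 of WT 1 and WT 4 to 8 *Pdzk1* alone was called, and without WT 9 *Afp*, *Apoe* and *Pdzk1* were. DESeq2 called 21 rows, where it called 5.62% of 18259 genes. In 1 edgeR fit of all 35 epiblasts no member was called at E7.5, and 11 of 24126 genes were.

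**Figure D5:**
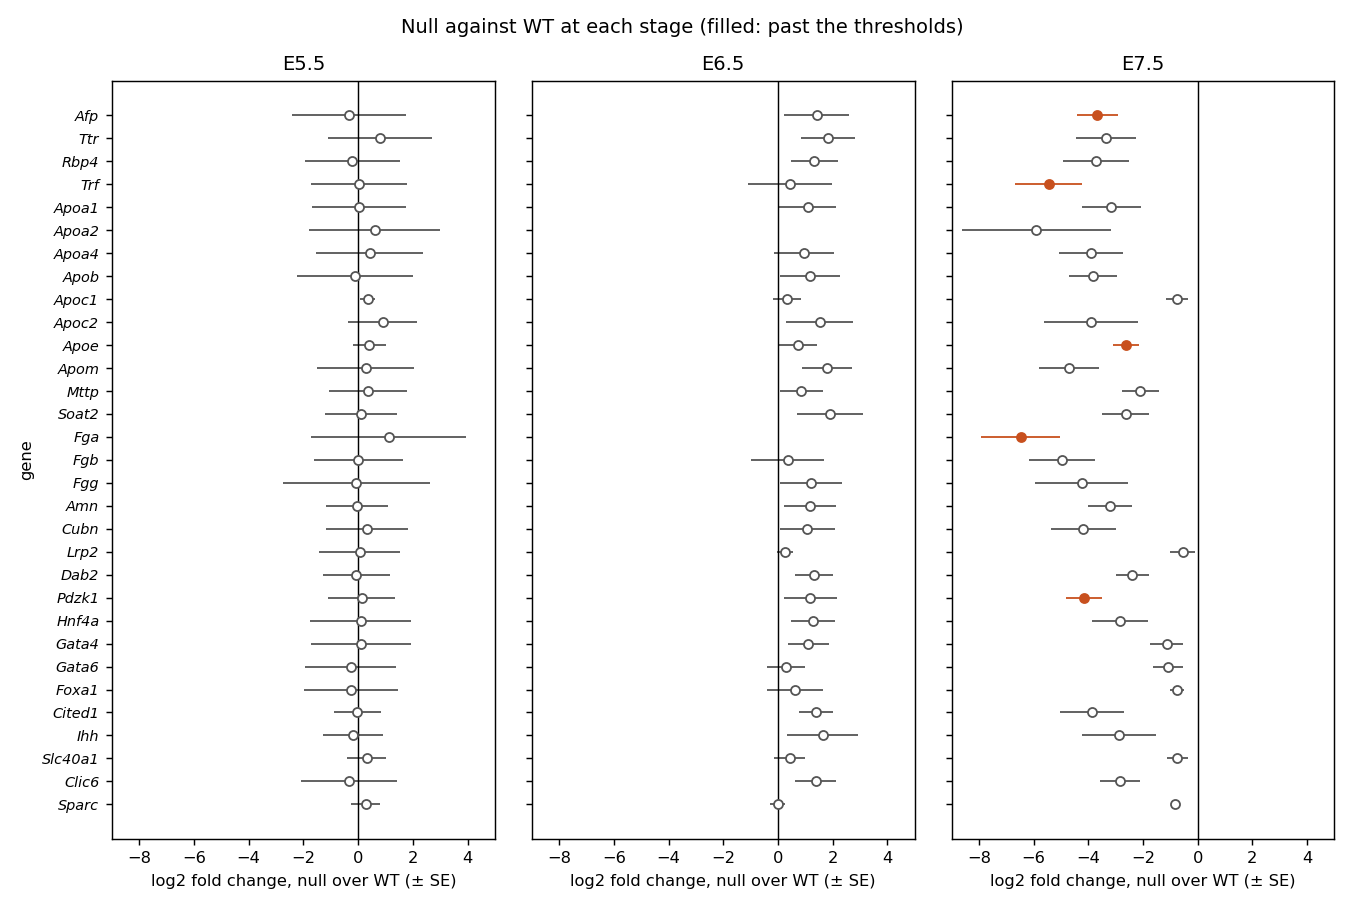
Log2 fold change (null over WT, ± SE, edgeR) of each gene in each of the 3 epiblast stages, with filled orange points for genes past the thresholds and the first Apoc2 row shown. Points scatter about 0 with wide errors at E5.5, lie to the right of 0 for 28 of 29 rows at E6.5 without a call, and lie to the left for all 31 at E7.5, where Afp, Trf, Apoe, Fga and Pdzk1 are filled.

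Genes of other endoderm lists were also read at E7.5, and they lay on both sides of 0. Their calls are from the same edgeR fit, where 1.09% of 19680 genes were called lower and 1.17% in either direction. Like the member calls they rest on 3 null embryos, and their dependence on single libraries is not given here. Of 8 further visceral endoderm genes, *Vil1*, *Spink1* and *Sox17* were called lower in null and 7 of 8 were negative. Of 8 parietal endoderm genes, 4 were called lower, namely *Col4a1*, *Lama1*, *Plat* and *Pth1r*. Of 6 anterior visceral endoderm genes none was called and 4 were positive, and of 7 definitive endoderm genes tested *Sox17* and *Krt19* were called lower and *Trh* higher. The summed level of the anterior genes was 163 to 279 CPM (median 216) in null and 96.2 to 313 CPM (median 133) in WT. That sum was also 276 to 464 CPM in the EpiSC lines, with *Cer1* at 2.86 to 12.7 CPM, so it is not particular to visceral endoderm. The sum of 8 definitive endoderm genes was 383 to 619 CPM (median 509) in null and 263 to 476 CPM (median 345) in WT. *Epcam*, a gene of that list, made up much of it, with medians of 241 CPM in null and 127 CPM in WT. *Sox17* was on both the further visceral endoderm and the definitive endoderm list. All 8 epiblast genes were positive (median log2 fold change 1.41, none called), and their summed level was 4405 to 6045 CPM in null and 1086 to 5849 CPM in WT. Within the WT group, WT 3 had both the lowest sum of the 31 genes (1108 CPM) and the highest epiblast sum (5849 CPM). Their part in the result was not tested.

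Blood and decidua genes were scarce throughout. The summed level of 6 blood genes was at most 30.7 CPM and that of 6 decidua genes at most 21.1 CPM in any epiblast library, and the 3 embryonic globin genes among the former (*Hbb-bh1*, *Hba-x* and *Hbb-y*) had no count in any library.

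The test of the difference itself, the genotype effect at E7.5 minus that at E6.5 in 1 fit of the 35 epiblast libraries, gave no call among 32 rows, where 0.245% of 24126 genes were called. All 32 values were negative, with a median of -4.54 against -0.02 over all genes, and 23 had an unadjusted p under 0.05. The smallest adjusted p in edgeR was that of *Cited1* (-5.28 ± 1.40, adjusted p = 0.0818), and DESeq2 called 12 rows, where it called 2.45% of 21077 genes. A difference between the stages in the genotype effect was therefore not shown by edgeR at these thresholds. Yet 5 rows were called when E6.5 WT 3 was left out, *Cited1* and *Fga* without E7.5 WT 3 and *Fga* without E6.5 WT 1. Shares of all genes called are not given for those fits.

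Between stages, the same genes were followed within each genotype. In WT from E5.5 to E6.5, 29 of 31 rows were negative, with a median log2 fold change of -2.23 against 0.10 over all genes, and 4 were called lower, where 2.63% of 20763 genes were called lower and 5.15% in either direction. These were *Lrp2*, which fell by 3.74 (SE 0.39, adjusted p = 0.00111 by edgeR), *Sparc* by 2.10 (SE 0.44, adjusted p = 0.0147), *Cited1* by 3.48 (SE 0.85, adjusted p = 0.0299) and *Gata6* by 2.69 (SE 0.74, adjusted p = 0.0420). In 16 rows every E6.5 library was below both E5.5 libraries, where 9.63% of all genes were. *Afp* and *Fgg* were the 2 rows that were positive (0.56 ± 2.09 and 1.61 ± 2.21). Leaving out E6.5 WT 3 gave 20 calls, and leaving out any 1 of E6.5 WT 6, 8 and 9 gave *Lrp2* and *Sparc*. Shares of all genes called are not given for these fits, so a change particular to the members cannot be read from them. Without E5.5 WT 1, which leaves a single E5.5 WT library, *Lrp2* had a log2 fold change of -3.69. DESeq2 called 21 rows, where it called 10.7% of 19213 genes.

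In WT from E6.5 to E7.5, 5 of 30 rows were called higher, where 5.74% of 17191 genes were called higher and 8.83% in either direction, and 27 of 30 were positive (median 1.02). *Fga* rose by a log2 fold change of 5.42 (SE 1.11, adjusted p = 0.00118 by edgeR), a fitted value that depends on the prior count, *Rbp4* by 2.74 (SE 0.76, adjusted p = 0.0136), *Gata6* by 1.85 (SE 0.52, adjusted p = 0.0135), *Ttr* by 2.47 (SE 0.80, adjusted p = 0.0313) and *Foxa1* by 1.93 (SE 0.61, adjusted p = 0.0263). No row separated the stages, where 1.52% of all genes did with E7.5 higher and 0.855% with E7.5 lower. Without E6.5 WT 3, the richest WT library of its stage, 21 rows were called and all 30 were positive. The share of all genes called in that fit is not given here. Among the receptors, *Lrp2* gave -0.13 ± 0.33 and *Cubn* 1.06 ± 0.90, neither of them called. DESeq2 called 6 rows, where it called 10.4% of 22382 genes.

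In null epiblasts from E5.5 to E6.5, 26 of 31 rows were negative (median -1.56) and 2 were called lower, *Sparc* with -2.42 ± 0.34 (adjusted p = 0.00355 by edgeR) and *Lrp2* with -3.58 ± 0.81 (adjusted p = 0.0339), where 0.757% of 18352 genes were called lower and 1.98% in either direction. *Sparc* was also the member whose E6.5 null levels all lay below the E5.5 null range, where 2.07% of all genes did. This count depends on E5.5 null 1: without it 14 members lay wholly below, among them *Lrp2*, *Cubn*, *Hnf4a* and *Ttr*, where 5.34% of 19099 genes did, a count added after seeing the data. DESeq2 called 8 rows, 7 of them lower, where it called 5.99% of 19470 genes. Without E5.5 null 1, 27 of 31 rows were negative (median -1.88), edgeR called *Lrp2*, *Slc40a1* and *Sparc*, where 1.25% of 19099 genes were called lower, and DESeq2 called 13 rows, 12 of them lower, where it called 6.47% of 18834 genes. Leaving out any 1 of E5.5 null 2 to 4 and E6.5 null 5 to 8 left *Sparc* alone in edgeR. Without E6.5 null 1 *Apoc1* was called too and without E6.5 null 3 *Pdzk1*, without E6.5 null 4 *Slc40a1* was called in place of *Lrp2*, and without both E5.5 null 1 and E6.5 null 1, an alternative chosen after seeing the data, the calls were *Apoc1*, *Lrp2*, *Slc40a1* and *Sparc*. From E6.5 to E7.5, 28 of 30 rows were negative in null (median -3.22, 20 with an unadjusted p under 0.05) and none was called by edgeR, where 0.103% of 19460 genes were called. DESeq2 called 12 rows lower, where it called 1.65% of 19446 genes. The median of WT over the same interval was positive, as given above, and the 2 comparisons share no library. *Apoa4* and *Cited1* were the 2 rows whose E7.5 null levels all lay below the E6.5 null range, where 2.13% of all genes did.

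In EpiSCs none of 21 rows tested was called by edgeR (5 had an unadjusted p under 0.05), where 0.106% of 20736 genes were called, and DESeq2 called none of 26, where it called 1.01% of 21165 genes. Both null lines were below both WT lines for 10 rows, among them *Lrp2*, *Sparc*, *Apoe* and *Mttp*, where 18.8% of all genes were, and above them for *Apoc1* alone, where 21.4% were. With 2 lines of each genotype, a difference between lines and a difference between genotypes cannot be told apart.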

How the data were processed

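RNA-seq reads were processed by the study's authors with Trim Galore, HISAT2 and StringTie on GRCm38 (submitters' processing notes), and the authors deposited whole-number counts per gene, without normalization, in 1 table for the 35 epiblasts and 1 for the 4 EpiSC lines. The annotation version and strand setting are not given in the sources used here, so overlapping genes may share reads. Epiblast libraries came from Picopure RNA and the SMARTer Stranded Total RNA-Seq Kit v2, EpiSC libraries from RNeasy RNA after rRNA removal and NEBNext Ultra II. Every column was matched to a labelled sample (0 left over). Of 47643 gene identifiers, 47224 matched an entry of GENCODE vM21, the source of positions and lengths.

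CPM is counts over the library's total. Tests used edgeR 4.0.16 (R 4.3.3; TMM, filterByExpr with a minimum count of 10 and total of 15, robust quasi-likelihood, two-sided, Benjamini-Hochberg over all genes tested), within the groups compared. The standard error (SE) is the log2 fold change over the square root of F. The alternatives were DESeq2 1.42.0, its size factors (RLE), no filter, genes over 1% of counts left out, all 35 libraries in 1 fit, the replicate number as a block, E6.5 depth classes and each library left out. The members and lists were chosen with earlier results of these data known. A gene of the lists beside the members is not reported here. Values are given for the 2 most abundant members of each functional group, for 4 transcription factors and for members called, the others by range; other genes named were chosen after their values were seen unless called. Tests were tried on simulated counts. No 2 libraries were alike beyond a correlation of 0.984. Figures used matplotlib 3.10.9.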

Additional observations from a re-analysis of the deposited data

Results flagged for a closer look

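Within groups of 4 to 10 libraries, the gap from an extreme library to its nearest neighbour was compared with Dixon's critical value at 95% for the summed level and the members named with values. Of 80 groups tested, 20 passed, and the members are not independent of each other. Chance flags about 1 in 20 groups only where levels are normally distributed. Levels here were CPM without a log transform and were widely spread, so that rate need not hold. Of the 20, 16 belong to a single library, E6.5 WT 3. Its summed level was 8726 CPM, the next highest E6.5 WT library being at 2870 CPM. In this library *Afp* was at 186, *Ttr* at 71.3, *Trf* at 112, *Apob* at 2637, *Apoe* at 1215, *Fgb* at 24.5, *Cubn* at 1393, *Lrp2* at 809, *Pdzk1* at 31.7, *Hnf4a* at 98.0, *Gata4* at 116, *Gata6* at 24.2, *Foxa1* at 31.8, *Cited1* at 27.1 and *Clic6* at 123 CPM, each set apart from the other 8 WT libraries of the stage. The comparisons of WT stages are therefore given with and without it.

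The remaining 4 were E6.5 null 3 for *Cubn* (1883 CPM, the others at most 831) and *Pdzk1* (49.2 CPM, the others at most 14.9), E7.5 WT 6 for *Fgb* (16.6 CPM, the others at most 7.48) and E6.5 WT 1 for *Fga* (0.620 CPM, the others at most 0.109).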

How the results depend on the processing

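The number of members called depended on the tool and on single libraries, while no value of a called gene changed sign. DESeq2 called 21 members for E7.5 null against WT, 21 for WT E6.5 against E5.5, 8 for null E6.5 against E5.5 (13 without E5.5 null 1), 12 for null E7.5 against E6.5 and 12 for the genotype-by-stage term, and without E5.5 null 1 it called 1 at E5.5. Without the filter on low counts the numbers were 3, 2 and 1 for the first 3 of these. In 1 fit of all 35 epiblasts they were 0 at E7.5, 2 for WT E7.5 against E6.5 and 4 for null E6.5 against E5.5, which was also 4 without the 2 libraries rich in extraembryonic ectoderm genes. Leaving out each library in turn gave 0 (without null 2 or null 3) to 17 calls (without WT 3) at E7.5, 1 to 20 for WT E6.5 against E5.5, 4 to 21 for WT E7.5 against E6.5, 1 to 3 for null E6.5 against E5.5 and 0 to 5 for the genotype-by-stage term. Shares of all genes called are not given for most fits with a library left out, so these counts show only how calls vary. RLE factors gave 5 calls at E7.5. Where a fit dropped to 1 E5.5 WT library, that library was assumed to vary like the others.

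Replicate numbers are shared between groups. Same-numbered null and WT libraries at E5.5, 2 pairs, matched each other best (correlations of 0.0323 and 0.267). With 2 WT libraries, deviations from their mean are mirror images. The best match is then set by a sign alone and cannot show pairing. In no other comparison did same-numbered libraries deviate together in every pair (correlations of -0.332 to 0.0517 between null and WT at E7.5). With the replicate block the calls were 0 at E7.5, 9 for WT E6.5 against E5.5 and 0 for null E6.5 against E5.5. The EpiSC lines share no numbers.

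The summed level by group, a median, moved by more than the spread between libraries for E5.5 WT (16212 CPM without genes over 1% of counts, 6165 as TPM, 9092 without *Lrp2*), for E7.5 null (428 as TPM, 422 without *Lrp2*), for EpiSC null (414, 178 and 194) and for EpiSC WT (266 as TPM, 292 without *Lrp2*). Among single genes called, 220 alternatives left the call in place and 98 lost it. Counts of a few per library limit the fibrinogen genes and *Apoa2*.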

Other observations

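Genes of the anterior visceral endoderm, the signalling centre that secretes Nodal and Wnt antagonists, lay on the other side of 0 from most of the visceral endoderm genes at E5.5, without a call. The summed level of 6 of them (*Cer1*, *Lefty1*, *Hhex*, *Dkk1*, *Otx2* and *Gsc*) was 213 and 237 CPM in WT and 0 to 211 CPM in null epiblasts, the 0 being null 1, and 99.9 to 211 CPM without it. In the EpiSC lines the same sum was 276 to 464 CPM, so it is not particular to visceral endoderm. *Cer1* was at 22.0 and 29.7 CPM in WT and at 0, 1.61, 5.06 and 12.7 CPM in null 1 to 4. All 6 genes were negative (median log2 fold change -1.10), while 20 of 31 visceral endoderm rows were positive. Without null 1, 5 of the 6 were negative (median -0.69) and all 31 rows positive. EdgeR called none of the 6 in either fit, with an unadjusted p under 0.05 for 0 of them with null 1 and for 1 without it.

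*Col4a1*, a collagen IV chain on the parietal endoderm list, was at 1626 and 1180 CPM in E5.5 WT, at 97.3, 133 and 945 CPM (lowest, median, highest) in E6.5 WT and at 176, 485 and 582 CPM in E7.5 WT, against 115 to 173 CPM in E7.5 null. *Trh*, thyrotropin-releasing hormone, ran opposite at E7.5, with 221, 175 and 94.2 CPM in null and 50.4 to 112 CPM in WT, and was called higher in null.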
